A study of Mus musculus with 16 samples.

Results

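Arginine transport and metabolism is described here through 6 of the 19715 genes of the deposited matrix, taken by name and read in every cell type name and condition that the study's metadata gives. Slc7a2 encodes the cationic amino acid transporter CAT2, which carries arginine, ornithine and lysine across the plasma membrane. Arg1 and Arg2 encode the cytosolic and the mitochondrial arginase, which split arginine into ornithine and urea. Nos2 encodes the inducible nitric oxide synthase, which turns arginine into nitric oxide and citrulline. Odc1 encodes ornithine decarboxylase, the step from ornithine to the polyamine putrescine, and Ass1 encodes argininosuccinate synthase, which starts the rebuilding of arginine from citrulline.

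Tumor macrophages are known for spending arginine by competing routes. Arginase activity feeds ornithine into polyamines and proline and lowers the arginine available to T cells, while nitric oxide made from the same arginine is toxic to microbes and tumor cells. Arg1 is induced by interleukin 4 and interleukin 13 in mouse macrophages, Nos2 by interferon gamma and bacterial products, and CAT2 supplies both enzymes with substrate in activated macrophages. T cells that divide need polyamines and imported arginine, and cells with ASS1 can make part of their own.

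All samples came from tumors that NB9464D cells, a mouse neuroblastoma line, had formed under the skin of 8-week-old C57BL/6 males. The hosts were wild type (WT) or lacked the inhibitory myeloid receptor CD200R (CD200R-/-, here KO), although the growth protocol of the labels writes CD200-/- instead. The grafted line was the same in both genotypes, so only host cells differed by genotype. Tumors were taken on day 28 and digested with collagenase (1 mg/mL), and either CD45+ sorted leukocytes (sorted libraries) or all cells (tumor libraries) were captured with 10x 3' chemistry. The 4 groups were thus the sorted WT and KO and the tumor WT and KO libraries, and lists of 4 values below keep this order. The labels list 16 samples, 4 a group and lettered within it, but each cell carries only its group's name, so each group was read as 1 library. No test was possible, intervals are 95% intervals that cover counting error only, and genotype cannot be told apart from differences between animals, grafts or preparations. In a sum over cells, fewer cells of a type and less RNA per cell cannot be told apart either.

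In sorted preparations there were 5219 WT and 4305 KO cells, and in tumor preparations 4955 WT and 5897 KO cells. Median unique molecular identifiers (UMIs) per cell were 4665 and 3127 for the first pair and 19850 and 16276 for the second. Of the cell barcodes, 113 occurred in at least 2 libraries and accounted for 307 cells. The deepest copy of each had a median of 47783 UMIs, the other copies 670.5, and 71 of the 113 deepest copies lay in the KO sorted library. Ratios without these cells are given beside the results they move. The cells that the authors named M1 and M2 macrophages are pooled below as macrophage-named cells, 1577, 761, 191 and 371 of them, with medians of 18239, 7955, 11579 and 2993 UMIs. All 10 macrophage markers had UMIs in all 4 libraries, with summed levels of 35210, 17127, 19739 and 14647 CPM (UMIs of a gene per 1000000 UMIs of the name and library). M1-named cells stood above M2-named cells in each library, as given with Arg1 below. The WT tumor pool was the most uneven: 71 M2-named cells without an Arg1 UMI stood at 2024 CPM, 105 such M1-named cells at 36196 CPM. Tumor values of the pool carry this limit. The 10 leading genes held 0 of these markers under both names in the sorted libraries, 3 under M1 and 0 under M2 in the tumor libraries. Those of the sorted M2-named cells held 1 platelet gene, and Arg1 itself was among them, so Arg1 levels between the M1 and M2 names are no finding. Neither the cells named neuroblastoma (NB) nor those named fibroblasts showed a marker of their name among their 10 leading genes. The sorted fibroblast name was led by Ighg1 and Jchain. Among the leading genes of the NB name were Cenpf, Prc1 and Kif11 in both preparations, and 2 proliferation markers in the tumor libraries. These names are kept as the authors' labels.

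**Figure D1:**
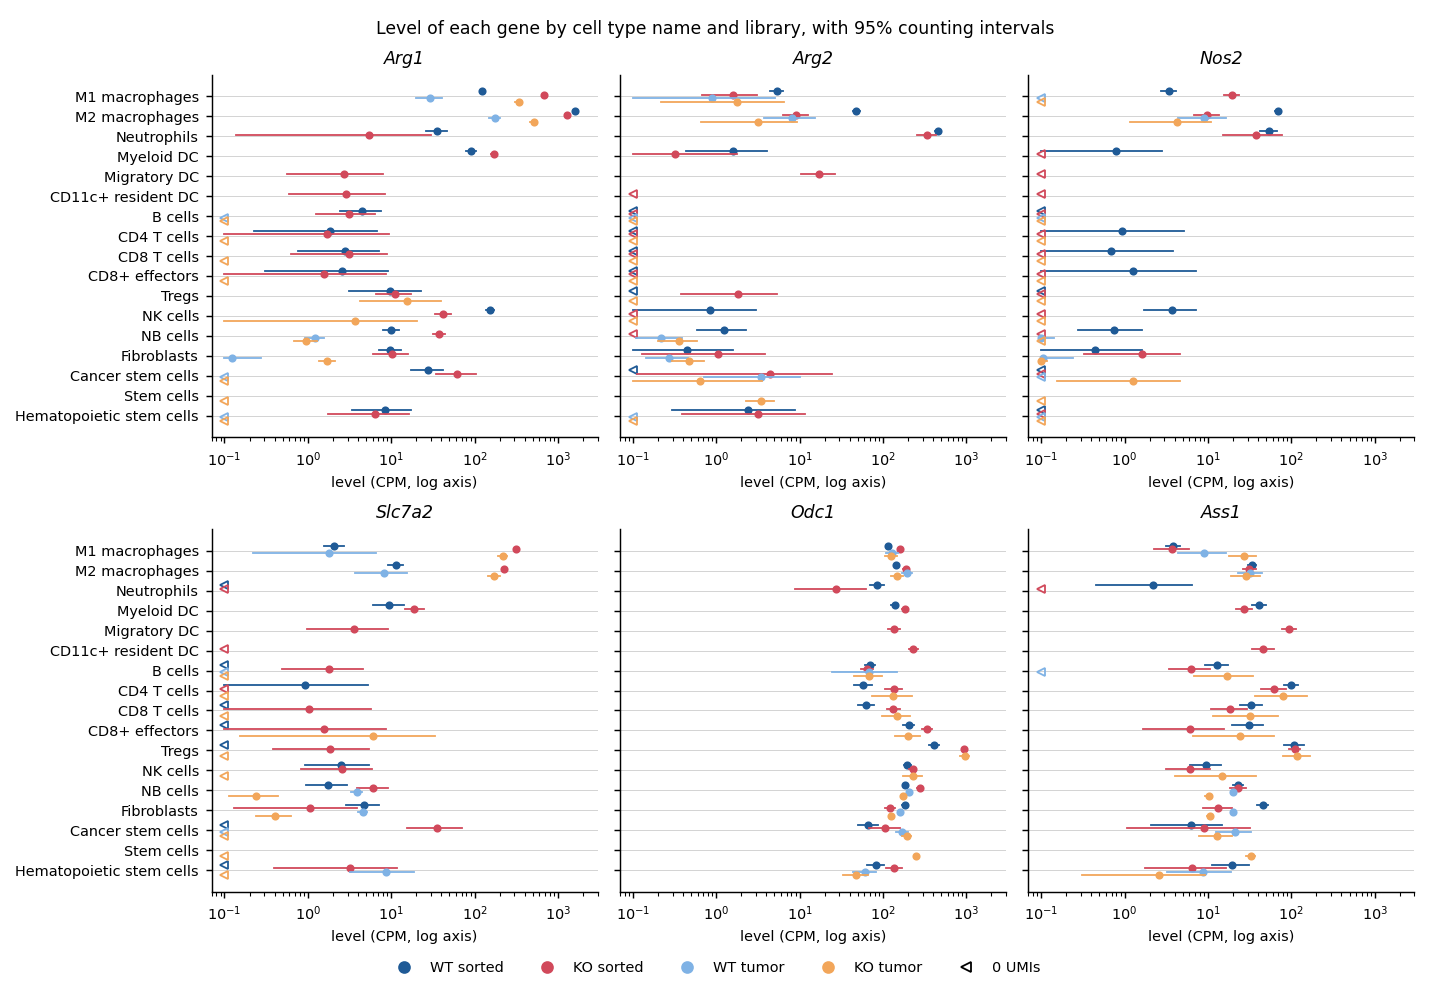
Level of each of the 6 genes by cell type name (rows) and library (colors), in CPM (log axis), for names with at least 50 cells in the library. Points are sums over cells, bars are exact Poisson 95% intervals drawn down to 0.1 CPM, and open triangles mark 0 UMIs. Arg1 stood highest in the M2 name of every library, but it is among that name's leading genes, so this order of names is no finding. Slc7a2 stood highest in the macrophage names of both KO libraries. In the WT sorted library the M2 name led at 11.4 CPM (9.27 to 14.0), overlapping myeloid dendritic cells at 9.47 CPM (6.07 to 14.1). The M1 name stood lower there, at 2.08 CPM. Arg2 stood highest in neutrophils of the sorted libraries. Odc1 had UMIs under every name drawn and was highest under the regulatory T cell name wherever that name is drawn.

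Slc7a2 was the gene of the 6 with the widest gap between genotypes, and it lies on chromosome 8 at 40862396 to 40922308, plus strand (mm10, GENCODE vM21). Its transcripts use 1 of 2 alternative coding exons, which are known as background to give transporters of different affinity for arginine. Both are shown because the UMIs below are given per gene and cannot tell them apart. A 3' library also reads the end of the transcript rather than these exons. The exon ends lie 6556 bases (Slc7a2-201) and 2304 bases (Slc7a2-202) before the end of their own transcript. Each exon occurs in 2 of the full coding transcripts, and 86 bases, or 61.0% of the aligned positions, are identical. The first is chr8:40908398-40908534 (137 bases) and the second chr8:40908056-40908195 (140 bases), both on the plus strand of mm10, and capitals mark the bases that differ in the alignment.
Slc7a2-201 exon: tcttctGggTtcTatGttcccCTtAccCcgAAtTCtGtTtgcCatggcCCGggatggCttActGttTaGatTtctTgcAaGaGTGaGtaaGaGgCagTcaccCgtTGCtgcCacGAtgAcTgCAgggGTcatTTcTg
Slc7a2-202 exon: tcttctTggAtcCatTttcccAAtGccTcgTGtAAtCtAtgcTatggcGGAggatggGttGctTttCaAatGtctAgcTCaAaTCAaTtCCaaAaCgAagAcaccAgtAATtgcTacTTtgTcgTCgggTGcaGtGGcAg

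Sorted macrophage-named cells held Slc7a2 at 4.43 CPM (3.74 to 5.20) when WT and at 277 CPM (266 to 288) when KO. Tumor-library ones held it at 4.96 CPM (2.47 to 8.87) when WT and at 197 CPM (178 to 217) when KO. Both KO libraries lay far above both WT libraries, and no interval of one genotype reached the other. Relative to the median gene, the sorted log2 ratio of KO over WT was 5.63 (5.39 to 5.88), and the tumor one was 4.98 (4.13 to 5.99). From the highest ratio downwards, Slc7a2 took rank 15 of 12613 sorted and rank 13 of 9989 tumor ratios. The gap was present under each macrophage name taken alone. M1-named cells held Slc7a2 at 2.08, 314, 1.80 and 219 CPM. The values for M2-named cells were 11.4, 227, 8.11 and 171 CPM. The WT tumor values rest on 2 and 9 UMIs. In the tumor libraries, the 6 WT M2-named cells with a Slc7a2 UMI had macrophage markers at 3394 CPM. The 18 such KO cells had them at 12810 CPM. Marker sums of each name, given with Arg1 below, differed between genotypes, and their part in the Slc7a2 ratios was not tested. Under all alternatives of processing the log2 ratio of the macrophage-named cells stayed between 3.93 and 6.93 (sorted) and between 3.98 and 6.68 (tumor).

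The Slc7a2 RNA sat in a minority of the macrophage-named cells. After thinning each cell to 2000 UMIs, a Slc7a2 UMI was found in 1.00% (0.562 to 1.65) of WT sorted, 16.4% (13.7 to 19.5) of KO sorted, 1.40% (0.170 to 4.96) of WT tumor and 10.5% (6.94 to 15.2) of KO tumor cells (1497, 657, 143 and 237 cells, after leaving out 80, 104, 48 and 134 shallower ones). Unthinned, the shares were 5.20%, 27.2%, 4.19% and 12.7%. In sorted B cells, a class that should lack the gene, the thinned share was 0 of 919 WT cells, which allows up to 0.401% (exact limit), and 0.352% of 568 KO cells, at median depths of 3118 and 2168 UMIs. The WT sorted interval (0.562 to 1.65) lay slightly above the limit of the WT B cells. The KO B cell share is given without an interval, so the WT sorted share is not called above it. Both KO shares of macrophage-named cells lay far above the B cell values. Cells with the transcript also held more of it in KO, with 4.79 UMIs per thinned sorted cell and 5.76 per thinned tumor-library cell against 1.13 and 1.00 for WT. A mean over cells with a UMI cannot fall below 1, and the WT means rest on few cells. In the WT sorted library 13 cells held 1 UMI and 2 held 2 to 4, and in the WT tumor library 2 cells held 1 UMI. Of the Slc7a2 UMIs of macrophage-named cells, 50% lay in 16 of 761 KO sorted cells and in 8 of 371 KO tumor cells. Removing the 3 cells with the most Slc7a2 UMIs from each library kept the ratio within the ranges above.

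Over whole tumors, by contrast, the Slc7a2 levels were alike: all cells together held 441 UMIs in the WT and 444 UMIs in the KO tumor library, 4.27 CPM in each. The cells that carried them differed. Macrophage-named cells held 2.49% of the Slc7a2 UMIs in the WT tumor library and 91.7% in the KO tumor library. NB-named cells held 44.0% and 2.25%, and fibroblast-named cells 49.7% and 4.28%. In the sorted libraries macrophage-named cells held 68.8% of 215 UMIs in WT and 94.6% of 2571 UMIs in KO.

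**Figure D2:**
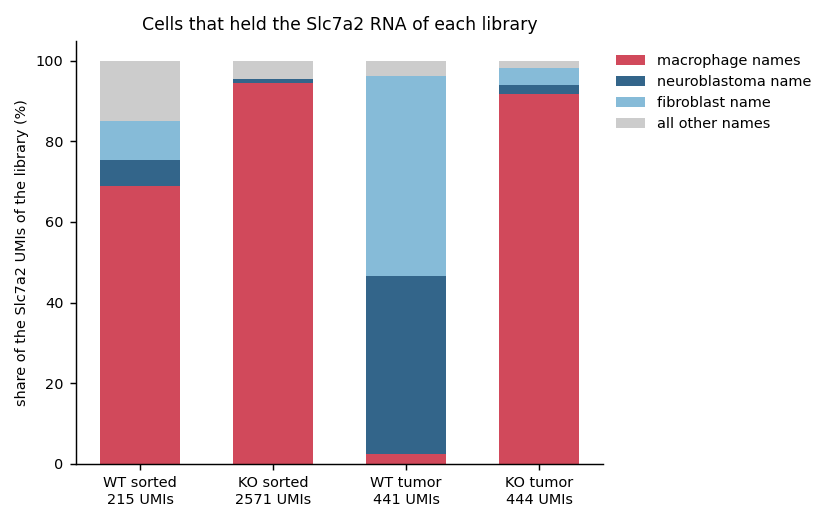
Share of each library's Slc7a2 UMIs (y axis, percent) by the authors' name of the cell that carried them, stacked in 4 groups of names for each library. The WT tumor bar is made up mainly of the NB and fibroblast names (44.0% and 49.7%), and the KO tumor bar of the macrophage names (91.7%).

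In NB-named cells of the tumor libraries the WT level of Slc7a2 was 3.86 CPM (3.33 to 4.44) and the KO level 0.240 CPM (0.115 to 0.441), a log2 ratio of -4.21 (-5.30 to -3.30). For fibroblast-named cells these levels were 4.55 CPM (3.97 to 5.19) and 0.402 CPM (0.242 to 0.628), a log2 ratio of -3.80 (-4.56 to -3.12). In both, KO was lower, the opposite of the macrophage-named cells. The UMIs were spread thinly in WT: 172 of 1665 NB-named cells and 203 of 2461 fibroblast-named cells held one, and the highest cell held 3. Macrophage markers summed to 289 CPM in the NB-named WT cells with a Slc7a2 UMI against 188 CPM in those without, and to 366 and 309 CPM in the fibroblast-named cells. In macrophage-named cells of the WT tumor library they summed to 19739 CPM. The KO counts were 10 and 19 UMIs, so the KO levels are known only roughly. Without the cells of shared barcodes the ratio was -5.52 in NB-named and -3.80 in fibroblast-named cells. Over all alternatives it lay between -6.47 (without the 3 cells with the most Slc7a2 UMIs in each library) and -3.52 (equal weight per cell) in the former, and between -5.01 (without cells that held markers of more than 1 lineage) and -2.82 (thinned to 2000 UMIs) in the latter. Sorted fibroblast-named cells held 21 Slc7a2 UMIs in WT and 2 in KO, a log2 ratio of -2.54 (-5.68 to -0.51), and giving each cell equal weight moved this value to 0.07.

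Arg1 (chromosome 10, 24915221 to 24927484, minus strand) is the arginase most often used to mark alternatively activated mouse macrophages. Sorted macrophage-named cells carried it at 499 CPM (491 to 507) when WT and at 946 CPM (926 to 966) when KO. In tumor libraries the WT value was 101 CPM (88.6 to 116) and the KO value 419 CPM (391 to 447). KO was the higher genotype in each preparation, and the sorted libraries lay above the tumor libraries of the same genotype. The sorted log2 ratio was 0.59 (0.55 to 0.63), rank 2694 of 12613 from the top, and the tumor log2 ratio was 1.71 (1.499 to 1.93), rank 245 of 9989. The sorted value sits at the 1.5-fold line that was used to call a difference, and it fell to 0.12 with equal weight per cell and to 0.16 after thinning to 2000 UMIs. Without shared barcodes the sorted value was 0.70 and the tumor value 1.72.

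The pooled Arg1 value in the sorted libraries joined ratios of opposite sign under the macrophage names. For M1-named cells the WT level was 121 CPM and the KO level 691 CPM, a log2 ratio of 2.20 (2.13 to 2.27). For M2-named cells they were 1626 and 1294 CPM, a log2 ratio of -0.71 (-0.76 to -0.66). Arg1 was thus higher in KO under the first name and lower under the other, and the difference between the names was not tested. Because Arg1 is among the leading genes of the M2 name, a split by these names is not independent of Arg1. How far the naming of cells enters the ratios of each name was not tested. In the tumor libraries KO was higher under both names, at 28.9 and 339.7 CPM in M1-named cells (log2 ratio 3.31, 2.79 to 3.88) and 174 and 512 CPM in M2-named cells (1.15, 0.90 to 1.40). The WT tumor M1 value rests on 32 UMIs, of which 1 cell held 18. Summed macrophage markers differed between these groups too. Among M2-named cells they stood at 19750.4 (WT) and 10654 CPM (KO) in the sorted and at 3238 and 8566 CPM in the tumor libraries, in the same direction as Arg1. Among M1-named cells they stood at 40386 and 21871 CPM (sorted) and at 36259 and 19757 CPM (tumor), in the opposite direction. The part of this in the Arg1 ratios was not tested.

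Counted by cells, Arg1 was more widely spread in KO. After thinning, 18.7% (16.8 to 20.8) of WT sorted, 37.7% (34.0 to 41.6) of KO sorted, 9.09% of WT tumor and 21.1% (16.1 to 26.8) of KO tumor macrophage-named cells had an Arg1 UMI. Unthinned shares were 28.7%, 44.7%, 7.85% and 22.9%. B cells gave 0.762% in the WT and 0.704% in the KO sorted library. In the sorted libraries 3.07% of WT and 9.89% of KO cells had exactly 1 UMI, 4.14% and 12.3% had 2 to 4, and 11.5% and 15.5% had 5 or more. KO was thus ahead in each range, by the widest margin in cells with few Arg1 UMIs. Among cells with Arg1, the mean was 9.17 UMIs in WT and 6.41 UMIs in KO. A few cells carried much of the total, since 58 of 1577 WT sorted and 42 of 761 KO sorted cells held 50% of it, and 3 of 191 did so in the WT tumor library.

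Arg2 (chromosome 12, 79130777 to 79156301, plus strand) had its highest level in neutrophils in the sorted libraries, but macrophage-named cells carried much of it too. The latter held 537 of the 1188 WT and 42 of the 135 KO sorted Arg2 UMIs. WT neutrophils carried 454 CPM (419 to 492), KO neutrophils 335 CPM (257 to 429.6), and neutrophils held 52.2% and 45.9% of all Arg2 UMIs of their library. An Arg2 UMI was seen in 65.3% of 432 WT and 34.5% of 87 KO neutrophils, and in 37.4% and 21.7% after thinning to 1000 UMIs, against 0 of 962 and 940 B cells (exact limits 0.383% and 0.392%). The log2 ratio in neutrophils was -0.94 (-1.34 to -0.57), and -0.44 when scaled by total UMIs alone. Summed neutrophil markers stood at 83563 CPM among WT and 40008 CPM among KO neutrophils, and their part in this ratio was not tested.

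Arg2 reached 16.1 CPM (14.7 to 17.5) among WT and 4.78 CPM (3.45 to 6.47) among KO sorted macrophage-named cells. In tumor libraries it reached 4.51 CPM (2.16 to 8.29) when WT and 2.42 CPM (0.787 to 5.65) when KO. WT sorted cells stood above the other libraries, whose intervals overlap. The sorted log2 ratio was -2.08 (-2.57 to -1.63), rank 149 of 12613 from the lowest, and stayed between -2.77 and -1.59 under all alternatives. With 10 and 5 UMIs the tumor libraries were too shallow for a ratio. Neutrophil markers moved with Arg2 in WT: they summed to 1823 CPM in the 216 macrophage-named cells with an Arg2 UMI and to 162 CPM in the 1361 cells without one. In KO the sums were 81.1 and 181 CPM. All 8 neutrophil markers had UMIs in the WT sorted M2-named cells, at a sum of 606 CPM, and 6 of 8 had them in KO, at 172 CPM. Their part in the Arg2 ratio was not tested.

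Nos2 (chromosome 11, 78920787 to 78960254, plus strand) reached 19.9 CPM (18.4 to 21.4) among WT and 15.3 CPM (12.8 to 18.1) among KO sorted macrophage-named cells. The tumor libraries gave 4.51 CPM (2.16 to 8.29) for WT and 1.94 CPM (0.528 to 4.96) for KO. The sorted libraries lay above the tumor libraries, and WT lay above KO in each preparation, with overlapping intervals in the tumor libraries. The sorted log2 ratio was -0.71 (-0.99 to -0.44), but 1 KO cell, named M1, held 94 of the 134 Nos2 UMIs of the KO sorted macrophage-named cells. The ratio without the 3 cells with the most Nos2 UMIs in each library was lower still, at -2.97. Scaling by total UMIs gave -0.38, removing cells with markers of more than 1 lineage gave -0.39, and removing shared barcodes gave -0.58.

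Split by name, WT Nos2 RNA lay mainly in M2-named cells, at 69.0 CPM against 9.70 CPM in KO, a log2 ratio of -3.21 (-3.74 to -2.73). In M1-named cells the WT level was 3.39 CPM and the KO level 19.3 CPM, a log2 ratio of 2.21 (1.77 to 2.64), and the single cell above held 95.9% of the KO UMIs there. Sorted M2-named cells with a Nos2 UMI had macrophage markers at 9759 (WT) and 5444 CPM (KO), against 21378 and 10873 CPM in those without. The part of this in the Nos2 ratios was not tested. By cells, thinned to 2000 UMIs, 3.47% of WT sorted and 0.913% of KO sorted macrophage-named cells had a Nos2 UMI, with 0 in 919 WT and 568 KO B cells (exact limits 0.401% and 0.647%). Neutrophils were the other main carriers, at 54.2 CPM (74 UMIs) in WT and 37.8 CPM (7 UMIs) in KO, with a log2 ratio of -1.02 (-2.39 to 0.09) whose interval includes 0.

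Odc1 (chromosome 12, 17544794 to 17551505, plus strand) differed little between genotypes in macrophage-named cells. Its levels were 123 CPM (119 to 127), 173 CPM (164 to 182), 161 CPM (145 to 179) and 137 CPM (122 to 154) in the order of libraries given above. KO was above WT in the sorted libraries and below it in the tumor libraries. The log2 ratio was 0.16 (0.07 to 0.24) in the former and -0.57 (-0.80 to -0.34) in the latter, both short of 1.5-fold. The tumor value passed that line under 5 of 11 alternatives. Thinned shares of cells with a UMI were 18.6%, 21.2%, 21.0% and 17.3%.

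Ass1 (chromosome 2, 31470207 to 31520672, plus strand) was low in the same cells, at 11.4 CPM (10.3 to 12.6), 15.5 CPM (13.0 to 18.3), 20.7 CPM (15.2 to 27.6) and 27.6 CPM (20.9 to 35.8) in the same order. The tumor libraries lay above the sorted ones within a genotype, and the intervals of the genotypes overlapped in the tumor libraries. The sorted log2 ratio was 0.11 (-0.18 to 0.40) and the tumor one 0.08 (-0.51 to 0.67). Neither held a direction: thinning to 2000 UMIs gave -0.71 for the sorted libraries, and the tumor libraries gave 1.32 in M1-named and -0.59 in M2-named cells alone.

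Counted together in macrophage-named cells, 2 of the 6 genes (Slc7a2 and Arg1) were at least 1.5-fold higher in KO and 2 (Arg2 and Nos2) at least 1.5-fold lower in the sorted libraries, where 21.5% of all tested genes were higher and 23.5% lower by the same rule of at least 20 UMIs and 1.5-fold. In the tumor libraries 4 of the 6 had 20 UMIs, of which 2 were higher and 0 lower, against 17.7% and 15.2% of all tested genes. The 2 that were higher in both preparations, Slc7a2 and Arg1, compare with 8.5% of genes higher in both, and 0 of 4 were lower in both against 7.13%. The median log2 ratio of the members was 0.13 (sorted) and 0.90 (tumor), where that of all tested genes is 0 by construction. With so many genes called, the counts among 6 members say little, and the sizes of the single ratios carry the description.

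**Figure D3:**
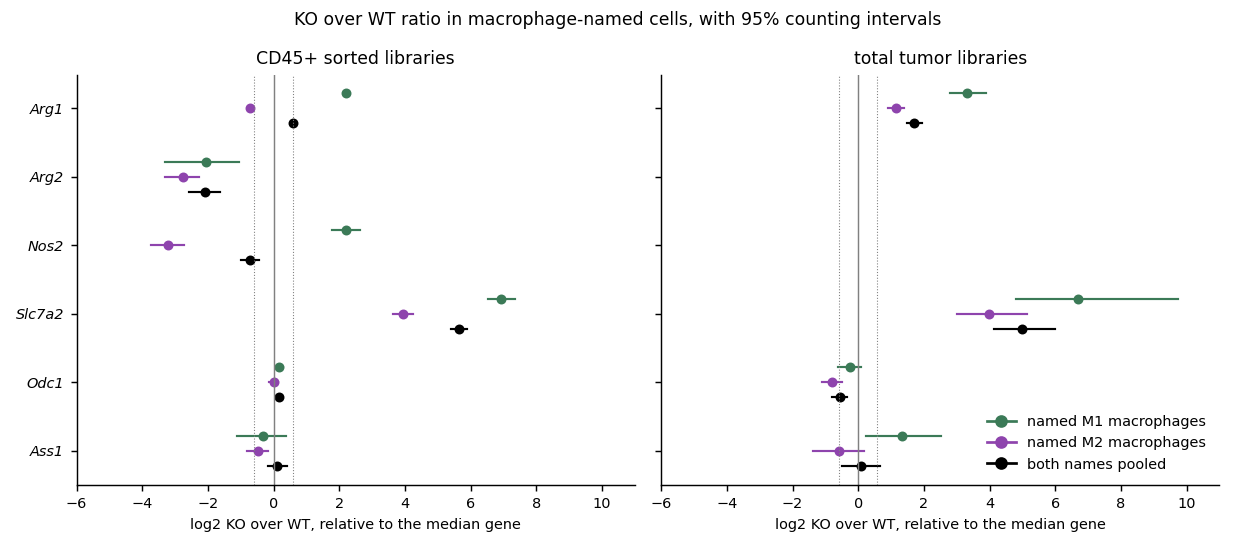
Log2 ratio of KO over WT relative to the median gene (x axis) for each of the 6 genes (rows) for sorted (left) and tumor libraries (right), for M1-named cells, M2-named cells and both pooled. Bars are 95% counting intervals, dotted lines mark 1.5-fold, and genes under 20 UMIs over both libraries are not drawn. Slc7a2 lay to the right under every name in both preparations, while Arg1 and Nos2 lay on opposite sides for the M1 and M2 names of the sorted libraries (2.20 and -0.71, 2.21 and -3.21). Arg1 is among the leading genes of the M2 name, so its split by name is not independent of the gene.

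Which of these genes shared a cell was read in the thinned macrophage-named cells. In the WT sorted library 92.3% (81.5 to 97.9) of the 52 cells with a Nos2 UMI also had an Arg1 UMI, against 16.1% (14.2 to 18.1) of the 1445 cells without Nos2. Nearly all of these 52 macrophage-named cells with Nos2 RNA thus also held Arg1 RNA. Unthinned, 100 of the 114 macrophage-named WT sorted cells with Nos2 were M2-named, the name with Arg1 among its leading genes. The part of the names in this comparison was not tested. Of the 62 thinned cells with an Arg2 UMI, 51.6% (38.6 to 64.5) had Arg1, against 17.3% (15.4 to 19.3) of the others. Read from Arg1, 17.1% (12.9 to 22.1) of the 280 cells with it had Nos2, against 0.329% of the cells without it.

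Arg1 and the transporter were also found together. An Arg1 UMI was found in 75.0% (65.7 to 82.8) of the 108 KO sorted cells with Slc7a2 and in 30.4% (26.6 to 34.5) of the 549 cells without it. In the KO tumor library it was found in 72.0% of 25 cells with Slc7a2 and 15.1% of 212 cells without. Of the 248 KO sorted cells with Arg1, 32.7% (26.9 to 38.9) had Slc7a2 and 1.61% (0.441 to 4.08) had Nos2. In WT sorted cells Slc7a2 was found in 3.57% (1.73 to 6.47) of cells with Arg1 and in 0.411% (0.134 to 0.956) of those without, so the link was present at low Slc7a2 levels as well. Odc1 showed little relation to Arg1 in the sorted libraries, being seen in 22.5% of WT cells with Arg1 and 17.7% without, and in 22.2% and 20.5% of KO cells. In the KO tumor library Odc1 was seen in 13 of 50 cells with Arg1 (26.0%, 14.6 to 40.3) and in 28 of 187 without. Cells of 1 library share their source, so these shares describe the libraries only.

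**Figure D4:**
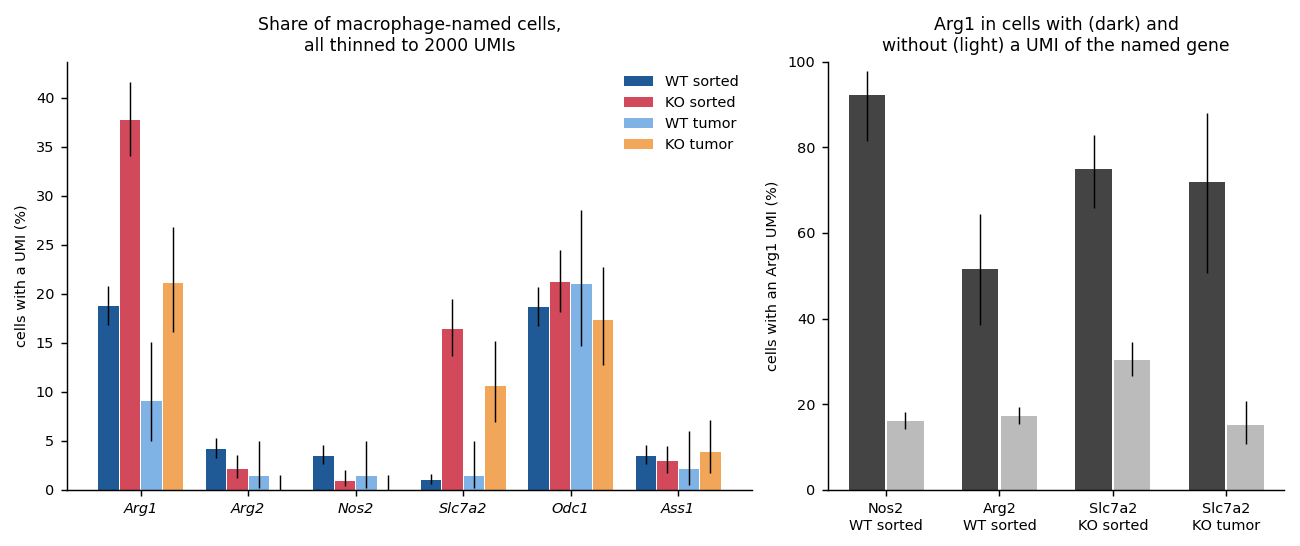
Left, share of macrophage-named cells with at least 1 UMI of each gene after thinning to 2000 UMIs (y axis, percent) in the 4 libraries. Right, share of such cells with an Arg1 UMI (y axis, percent) among cells with (dark) and without (light) a UMI of the gene named below, in the library named with it. Black lines span Clopper-Pearson 95% intervals. The Slc7a2 shares of both KO libraries (16.4% and 10.5%) lie above those of both WT libraries (1.00% and 1.40%). Among macrophage-named cells, Arg1 was seen in 92.3% of WT sorted cells with Nos2 and in 75.0% of KO sorted cells with Slc7a2.

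The wider pathway was read in macrophage-named cells from a list of 46 other genes, 42 of them in the matrix. In the sorted libraries 37 were tested, 7 were higher and 18 lower in KO by the rule above, against 21.5% and 23.5% of all genes, with a median log2 ratio of -0.35. In the tumor libraries 32 were tested, with 2 higher and 8 lower, against 17.7% and 15.2%, and a median of -0.26. More genes of the list were lower than higher in both. Scaled by total UMIs, the counts were 8 lower in the sorted libraries and 3 lower against 6 higher in the tumor libraries, so the leaning to lower depends on centering at the median gene, whose own log2 ratio was 0.33 in each preparation.

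Of the 32 genes tested in both preparations 2 were higher in both, where 8.5% of all genes were. Azin1, the antizyme inhibitor that protects ornithine decarboxylase from breakdown, measured 46.8, 111, 41.0 and 95.4 CPM over the 4 libraries (log2 ratios 0.91 sorted and 0.89 tumor). Atp13a3, a polyamine transporter, measured 45.4, 123, 34.2 and 97.4 CPM (1.10 and 1.17). The 6 genes lower in both included Asl, the enzyme after argininosuccinate synthase (-0.74 and -0.64), Oat, ornithine aminotransferase (-0.59 and -0.61), the polyamine oxidases Smox (-1.44 and -0.93) and Paox (-0.62 and -0.87), and Ckb, brain-type creatine kinase (-1.32 and -0.999). Of all genes 7.13% were lower in both.

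At the extremes of a single preparation, Slc7a1, the constitutive arginine transporter CAT1, held 335 UMIs over WT and 239 UMIs over KO sorted cells (log2 ratio 1.11, 0.86 to 1.35), but its tumor log2 ratio was 0.10 (-0.43 to 0.64) at 24.8 and 33.4 CPM. Gamt, a creatine synthesis enzyme, had the lowest sorted ratio at -1.70 (38.5 and 14.9 CPM), followed by Pycr1 at -1.57 on 18 and 2 UMIs. Gamt did not pass 1.5-fold in the tumor libraries. Ddah1, which breaks down inhibitors of nitric oxide synthases, had the lowest tumor ratio at -2.12 (111 and 30 UMIs). Its sorted ratio was -0.12 (-1.58 to 1.15), on 23 and 7 UMIs at 0.688 and 0.797 CPM. The hypusine genes are the translation factor Eif5a and the enzymes Dhps and Dohh that modify it with spermidine. Of these, 3 of 3 were lower in sorted cells (-1.20, -0.81 and -1.30), where 23.5% of genes were, and 0 of 3 passed 1.5-fold in the tumor libraries, at -0.42, -0.53 and -0.53. They were named after their values were seen.

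**Figure D5:**
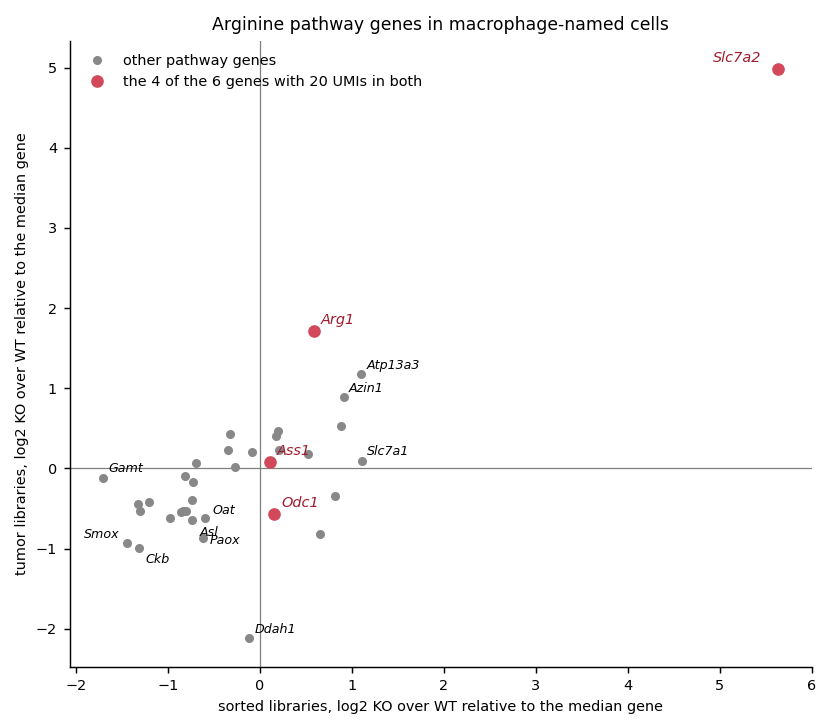
Log2 ratio of KO over WT relative to the median gene in macrophage-named cells, sorted libraries (x axis) against tumor libraries (y axis), for the 4 of the 6 genes with 20 UMIs in both preparations (red) and the 32 other pathway genes (gray). Slc7a2 (5.63 and 4.98) stands far from the rest, and Azin1 and Atp13a3 are the other genes that are at least 1.5-fold higher on both axes besides Arg1.

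Outside macrophages, Odc1 was highest in cells named regulatory T cells, in 3 of 3 libraries with 50 such cells. WT sorted cells of this name held 410.1 CPM (357 to 469), KO sorted cells 933 CPM (886 to 981) and KO tumor cells 954 CPM (839 to 1082). Both KO libraries lay above the WT library, and their intervals overlap each other. The sorted log2 ratio was 0.78 (0.57 to 0.99) and stayed between 0.63 and 1.19 under the alternatives, while 25.4% of all genes tested in these cells were higher by the same rule. After thinning, 43.9% (33.0 to 55.3) of WT sorted and 61.0% (55.6 to 66.3) of KO sorted cells had an Odc1 UMI. The 10 leading genes of this class held 4 regulatory T cell markers but also 2 of group 2 innate lymphoid cells, so it was split by CD3 RNA. In the cells with CD3 RNA Odc1 was at 403 CPM in 92 WT sorted, 937 CPM in 371 KO sorted and 988 CPM in 109 KO tumor cells. CD4 T cells had lower levels, 58.0 CPM for WT and 135 CPM for KO (0.66, 0.16 to 1.16), where 25.4% of genes were higher too.

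Ass1 was at least 1.5-fold lower in KO in 5 lymphocyte classes of the sorted libraries. The regulatory T cell name fell short of that, at a log2 ratio of -0.39 (-0.83 to 0.07). CD4 T cells had 99.1 CPM when WT and 62.3 CPM when KO, a log2 ratio of -1.23 (-1.81 to -0.68), in a class where 29% of genes were lower, and -0.45 after thinning to 1000 UMIs. CD8 T cells had 33.3 and 18.5 CPM (-1.42, -2.28 to -0.61), with 26.4% of genes lower. CD8+ effectors had 24 UMIs in WT and 4 in KO (-2.76, -4.75 to -1.22), with 25.5% lower, and B cells had 12.8 and 6.26 CPM (-1.47, -2.46 to -0.56), with 27.4% lower. NK cells had 23 and 12 UMIs (-1.01, -2.15 to 0.06), with 20 of the 23 in 1 cell and 27.7% of genes lower. The direction was shared by these 5 classes, but the counts were small, and the share of all genes that were lower was large in each. Regulatory T cells had the highest Ass1 level of the classes of at least 50 cells in the sorted libraries, with 109 CPM (82.2 to 141) for WT and 110.5 CPM (94.9 to 128) for KO, but these intervals overlap those of the next class, WT CD4 T cells (81.1 to 119.8) and KO migratory dendritic cells (76.6 to 114). Migratory dendritic cells stood at 305 CPM in the 46 WT sorted and 93.7 CPM in the 90 KO sorted cells.

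Myeloid dendritic cells of the sorted libraries followed macrophages in part. Arg1 stood at 91.2 CPM for WT and 171 CPM for KO (log2 ratio 0.64, 0.42 to 0.87), and Slc7a2 had 24 and 59 UMIs (0.74, 0.04 to 1.49), in a class where 17.3% of genes were higher. Without shared barcodes these ratios were 0.38 and 0.41, short of 1.5-fold, and thinning to 2000 UMIs turned that of Arg1 to -0.34. Dendritic cells with an Arg1 UMI had macrophage markers at 13563 (WT) and 8459 CPM (KO), against 8945 and 4479 CPM in those without. The part of macrophage RNA in these values was not tested. Ass1 was lower in KO in this class, 41.0 and 27.1 CPM (-0.86, -1.29 to -0.43), where 17.3% of genes were lower.

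Neutrophils were lower in KO for the 4 genes that reached 20 UMIs in the sorted libraries. Besides Arg2 and Nos2 above, Odc1 had 116 UMIs in WT and 5 in KO (log2 ratio -2.16, -3.81 to -0.89), and Arg1 had 48 and 1 UMIs (-3.21, -8.54 to -0.66), 33 of the 48 in a single cell. Of all genes tested in neutrophils 29.9% were lower, and the KO library held only 87 of them. Arg1 in NK cells, 154 CPM for WT and 41.8 CPM for KO (-2.25, -2.61 to -1.90), came from 8 and 4 cells, with 67.4% and 96.3% of the UMIs in 1 cell of each library. Macrophage markers stood at 10438 CPM in the 8 WT cells and 2932 CPM in the other WT NK cells, and their part was not tested.

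Sorted cells also included 205 WT and 171 KO cells named NB and 164 WT and 78 KO cells named fibroblasts. Arg1 in the former stood at 10.1 CPM for WT and 37.9 CPM for KO (log2 ratio 1.64, 1.23 to 2.06), and at a ratio of -0.37 without cells that held markers of more than 1 lineage. Slc7a2 had 14 and 22 UMIs there, with 17 of the 22 in 1 cell. Macrophage markers summed to 11442 CPM in the WT and 2168 CPM in the KO cells of this name, and their part was not tested. Among sorted fibroblast-named cells, where 27.6% of genes were lower, Odc1 stood at 183 and 122 CPM (-0.998, -1.22 to -0.78), with -0.44 after thinning to 2000 UMIs. Ass1 stood at 45.2 and 13.3 CPM (-2.17, -2.84 to -1.57) there, with 40.9% of the WT UMIs in 1 cell. Its ratio was -1.19 with equal weight per cell and -3.24 without cells that held markers of more than 1 lineage.

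In the cells of the tumor libraries named NB or fibroblasts, Ass1 was lower in KO alongside Slc7a2. NB-named cells had 20.2 CPM (1018 UMIs) in WT and 10.2 CPM (425 UMIs) in KO, a log2 ratio of -1.20 (-1.36 to -1.03). Fibroblast-named cells held 965 UMIs when WT and 499 when KO, a log2 ratio of -1.23 (-1.39 to -1.07). The values were close to each other under both names, and all alternatives kept the ratio between -1.62 and -0.92. Odc1 stood at 205 and 174 CPM in NB-named cells (-0.45, -0.49 to -0.40) and at 162 and 124 CPM in fibroblast-named cells (-0.69, -0.74 to -0.64; -0.39 when scaled by total UMIs). Of the 5 members tested, 0 were higher and 2 lower in NB-named cells, where 16.4% of genes were higher and 16.2% lower. In fibroblast-named cells 1 was higher and 3 were lower, against 19.3% and 16.6%. The 1 higher gene was Arg1, on 6 UMIs in WT and 80 in KO (3.46, 2.28 to 4.95). The 23 KO cells that held it had macrophage markers at 566 CPM, against 171 CPM in the other fibroblast-named cells, and their part was not tested.

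The start of Ass1 is shown because this was the member other than Slc7a2 that was at least 1.5-fold lower under both names. Promoter windows of 300 bases (250 before the start and 50 after it, RefSeq, GRCm38.p6) were at hand for 2 of the 6 genes, Ass1 and Odc1, and were searched on both strands for the STAT6 motif, TTCNNNGAA (GAS), ACGTG (hypoxia), CACGTG (E-box), the NF-kB motif, TGACGTCA (CRE), TTGCNNCAA (C/EBP) and TGANTCA (AP-1). The Odc1 window, chr12:17544623-17544922 on the plus strand with 78% GC, held 0 matches. The Ass1 window, chr2:31470020-31470319 on the plus strand with 74% GC, held 1 E-box, which begins 36 bases before the RefSeq start and overlaps ACGTG read on either strand. The annotations differ on that start, since by the GENCODE vM21 gene coordinates above the E-box begins 27 bases after it. E-boxes of this kind are bound by MYC family and other helix-loop-helix factors as background. Of 32851 promoter windows of this length 7.15% held CACGTG and 19.6% held ACGTG, while the shares of the other motifs, in the order given, were 6.95%, 8.30%, 0.411%, 1.79%, 2.08% and 7.81%. The match is a description of the letters, printed for chr2:31470222-31470251, plus strand, with the E-box in capitals.
Ass1 promoter: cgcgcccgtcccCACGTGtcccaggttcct

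The pattern of each gene over cell types was set beside that of 7475 genes in the 50 combinations of name and library with at least 50 cells, as Pearson's r of log2(CPM + 1), which is a description because the points share libraries and depth. Arg1 was most like macrophage genes, among them Msr1 (r = 0.89) and Csf1r (0.88). Slc7a2 was most like Cd163 (0.85), a scavenger receptor of tissue macrophages, Rnase2a (0.83) and C4b (0.81). Arg2 went with Fpr1 (0.91), Slfn4 (0.90) and Trem1 (0.89), and Nos2 with the neutrophil collagenase Mmp8 (0.90), Fpr2 (0.87) and Rhov (0.87). Odc1 was nearest to Zdhhc2 (0.82), Ttc39c (0.75) and Csnk2b (0.72), and Ass1 to the mitochondrial folate enzyme Mthfd2 (0.73), Polr2g (0.69) and Erich1 (0.67). Among the 6 genes themselves the closest pairs were Arg2 with Nos2 (0.79), Arg1 with Slc7a2 (0.72), Arg1 with Nos2 (0.57) and Odc1 with Ass1 (0.55). By Spearman's rank correlation these pairs stood at 0.51, 0.58, 0.43 and 0.42, and Arg1 with Arg2 at 0.48. The nearest genes by rank were Nrp2, Nr1h3 and Gpalpp1 for Slc7a2, and Ptgs2, Slc7a11 and Anxa3 for Arg2. For Nos2 they were Cxcl3, Mcemp1 and Lrg1. Both the order of pairs and these neighbors thus depend on the measure.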

How the data were processed

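The authors deposited 1 matrix of natural log values, ln(1 + 10000 × UMIs / total UMIs of the cell), with each cell's total UMI count, library and cell type name. Per the submitters' processing notes Cell Ranger 6.0.1, Seurat 4.0.5 and the build mm10 were used, with no role given. Whole UMI counts were recovered from the deposited totals. The cells of a name were summed per library and divided by all their UMIs (CPM). The 95% intervals are exact Poisson ones around CPM, conditional binomial ones around ratios and Clopper-Pearson ones around shares. Ratios of KO over WT were centered on the median of all tested genes in that class. Names with at least 50 cells in both libraries were compared. A gene counted as higher or lower with at least 20 UMIs over both libraries and at least 1.5-fold. Thinning drew 2000 UMIs per cell without replacement (seed 1).

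No doublets were removed in the main values. The doublet alternative took out cells with 3 markers in each of 2 lineages. A library of 1 per group allows no p-value. The members, gene lists, marker lists and thresholds were chosen with earlier results of these data known. Named genes were the 6 members, the pathway genes called in the same direction in both preparations, the 2 most extreme on each side in each preparation, the 3 genes most like each member, and members called in other classes. A few genes that this rule selects are not reported here. Scripts were tested on simulated data. Python 3.11.15, numpy 2.4.6, scipy 1.17.1, pandas 2.3.3 and matplotlib 3.10.9 were used.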

Additional observations from a re-analysis of the deposited data

Results flagged for a closer look

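Some ratios ran in opposite directions in 2 groups of cells of the same libraries, and none of these differences was tested. In the sorted libraries the Arg1 log2 ratio of KO over WT was 2.20 in M1-named and -0.71 in M2-named cells. Arg1 is among the leading genes of the M2 name, so this split is not independent of the gene. The ratio of Nos2 was 2.21 and -3.21 under these names, with 95.9% of the KO Nos2 UMIs of M1-named cells in 1 cell. Slc7a2 was 5.63 in sorted macrophage-named and -2.54 in sorted fibroblast-named cells, the latter on 21 and 2 UMIs. In the tumor libraries Slc7a2 was 4.98 in macrophage-named cells, -4.21 in NB-named and -3.80 in fibroblast-named cells. Outside the compared classes, 13 cells named endothelial in the KO tumor library held 21 Nos2 UMIs, a level of 100.1 CPM (62.0 to 153) found in 7 of the 13 cells, while the 13 such cells of the WT tumor library held 3 UMIs.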

How the results depend on the processing

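Slc7a2 (both preparations), sorted Arg2 and tumor Arg1 in macrophage-named cells, sorted regulatory T cell Odc1, and Slc7a2 and Ass1 in NB- and fibroblast-named tumor cells kept their direction and 1.5-fold under every alternative that gave a value. Of the values at least 1.5-fold apart, 6 turned sign: sorted macrophage-named Arg1 in M2-named cells alone (-0.71), Nos2 in M1-named cells alone (2.21), sorted fibroblast-named Slc7a2 with equal weight per cell (0.067), myeloid dendritic Arg1 thinned to 2000 (-0.34) or 1000 UMIs (-0.069), and sorted NB-named Arg1 without doublets (-0.37). The cause was not tested. Values short of 1.5-fold turned too, sorted macrophage-named Ass1 under 6 of 11 alternatives among them. Of 2 members higher in sorted cells, 1 was left with equal weight, thinning to 2000 or 1000, M2-named cells alone or a 2-fold limit. Of 2 lower, 1 was left when scaled by total UMIs, without doublets, in M1-named cells alone, at 2-fold and without shared barcodes (added after seeing the data, as was leaving out the 3 top cells). Against 0 lower in tumor cells, 1 was lower with equal weight, thinned to 2000, without doublets or with a stricter cell filter, and 2 in M2-named cells alone or with no minimum of UMIs. Pathway genes higher in sorted cells (7) were 4 thinned to 2000, 3 in M1-named cells alone and 2 at 2-fold. Those lower (18) were 8 by total UMIs, 11 in M2-named cells alone and 7 at 2-fold. In tumor cells the 2 higher became 6 by total UMIs, 5 with equal weight, 4 thinned to 2000 or 1000, 5 in M1-named and 8 in M2-named cells alone, and 1 at 2-fold. The 8 lower became 3 by total UMIs, 5 thinned to 1000 and 1 at 2-fold. Alternatives that left under 20 UMIs gave no value, and leaving out ribosomal and mitochondrial UMIs cannot move a centered ratio. No paired analysis was possible because the cells carry only their group's name. With 4.51 CPM or less, Arg2 and Nos2 were too shallow in the tumor libraries for a ratio.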
